A study of Mus musculus with 6 samples.

Results

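Metallothioneins and zinc transporters set how much free zinc a cell holds, and 10 of these genes were followed in As4.1 cells after an interleukin, hydrogen peroxide or vehicle. The genes were the metallothioneins Mt1, Mt2 and Mt3, the zinc-sensing transcription factor Mtf1, the exporters Slc30a1, Slc30a4 and Slc30a5, and the importers Slc39a14, Slc39a8 and Slc39a10. They were taken from a given list and read through every probe set annotated to one of them alone, which gave 21 probe sets for 10 of the 18193 genes represented on the array. As4.1 is a mouse kidney tumour line studied for renin. The groups were cultures given interleukin, whose kind the labels do not name, cultures given hydrogen peroxide, and cultures given vehicle, and no dose or time is given. Each of the 3 groups held 2 Affymetrix arrays, all of 1 cell line with no genetic change named between groups. The titles number the 2 arrays without saying whether they came from separate cultures, so p-values measure the spread between these arrays.

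Metallothioneins are small cysteine-rich proteins that bind zinc and copper, and in liver they are induced by metals, glucocorticoids and inflammatory cytokines. The transcription factor MTF-1 binds zinc and then drives genes whose promoters carry metal response elements, among them Mt1, Mt2 and Slc30a1 in mouse. Transporters of the SLC39 or ZIP family bring zinc into the cytosol from outside or from vesicles, and those of the SLC30 or ZnT family carry it out again. In mouse hepatocytes interleukin-6 induces both metallothionein and Slc39a14, which lowers zinc in blood during inflammation.

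The promoters of the 3 metallothioneins and of Slc30a1 are shown because Mt1 and Mt2 are neighbouring genes that both rose with interleukin, Mt3 lies beside them and was dim, and Slc30a1 is the classical exporter target of MTF-1. Each window is from RefSeq (GRCm38.p6), runs 250 bases before to 50 bases after a listed transcription start, and is printed 5′ to 3′ on the gene's strand. Capitals mark the core of the metal response element, searched on both strands as TGCACNC or TGCGCNC, where N is any base and overlapping matches count separately. The windows lie at chr8:94172368-94172667 on the plus strand for Mt2, at chr8:94178839-94179138 on the plus strand for Mt1, at chr8:94152357-94152656 on the plus strand for Mt3 and at chr1:191906531-191906830 on the plus strand for Slc30a1.
Mt2: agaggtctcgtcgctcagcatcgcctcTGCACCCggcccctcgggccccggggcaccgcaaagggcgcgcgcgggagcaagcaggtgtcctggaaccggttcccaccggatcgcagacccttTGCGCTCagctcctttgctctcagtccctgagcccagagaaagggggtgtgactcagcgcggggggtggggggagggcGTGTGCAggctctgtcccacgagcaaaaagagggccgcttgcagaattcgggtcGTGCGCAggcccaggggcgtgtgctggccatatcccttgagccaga
Mt1: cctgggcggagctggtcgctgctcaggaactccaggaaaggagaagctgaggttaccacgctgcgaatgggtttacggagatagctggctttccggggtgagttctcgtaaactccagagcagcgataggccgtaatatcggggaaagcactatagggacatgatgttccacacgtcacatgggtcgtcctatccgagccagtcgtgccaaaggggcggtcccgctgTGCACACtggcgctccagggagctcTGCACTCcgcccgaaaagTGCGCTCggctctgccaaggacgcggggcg
Mt3: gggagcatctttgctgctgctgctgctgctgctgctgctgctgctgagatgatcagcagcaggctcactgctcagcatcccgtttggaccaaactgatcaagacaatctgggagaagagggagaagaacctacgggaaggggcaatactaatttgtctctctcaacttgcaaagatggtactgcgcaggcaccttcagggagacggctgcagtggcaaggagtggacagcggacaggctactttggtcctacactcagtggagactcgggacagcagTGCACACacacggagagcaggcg
Slc30a1: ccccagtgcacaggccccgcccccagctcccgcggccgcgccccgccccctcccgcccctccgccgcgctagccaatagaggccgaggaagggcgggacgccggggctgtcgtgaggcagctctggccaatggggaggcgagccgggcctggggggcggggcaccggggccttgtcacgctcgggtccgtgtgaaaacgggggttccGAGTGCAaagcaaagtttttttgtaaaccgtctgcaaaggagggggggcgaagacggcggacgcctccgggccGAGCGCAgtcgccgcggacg

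The Mt2 window held 4 matches and the Mt1 window 3, whereas the Mt3 window held 1 and the Slc30a1 window 2. In Mt2 the matches began 223, 128 and 50 bases before the start and 4 bases after it, and in Mt1 they began 23 bases before the start and 2 and 20 bases after it. Among the other genes Slc30a4 had 3 matches, Slc30a5 had 1, Slc39a8 had 1 at the second of its listed starts, and Mtf1 and Slc39a10 had none in these windows. Of all 32851 promoter windows of this length 25.7% held at least 1 match, 1.97% at least 3 and 0.517% at least 4. A match describes letters only, and 9 of the 10 genes had a window in the table used. The gene intervals of Mt1 and Slc30a1 begin at 94178883 and 191906697, inside the printed windows but before their listed starts. Positions and counts of matches therefore hold for the listed start and its window only, and sequence outside the windows was not searched.

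**Figure D1:**
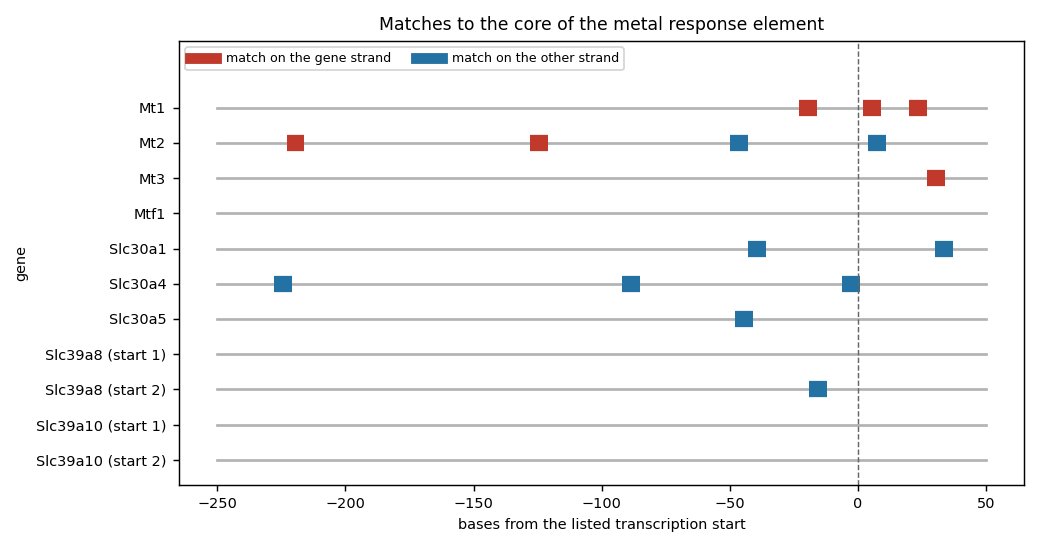
Position of each match to the metal response element core, in bases from the listed transcription start (horizontal axis), in the 11 promoter windows of 9 genes. Red marks the gene's strand and blue the other strand. Mt2 holds 4 matches spread over the window, and those of Mt1 lie close to its listed start, which is not the first base of its gene interval.

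The arrays report MAS5 signals, which the authors had scaled linearly to a common trimmed mean of 1500.01, with medians per array of 192.2 to 232.3. The 22519 probe sets in the brighter part of the array, with a geometric mean signal of at least 193.7, were tested, among them 16 of the 21 probe sets and 9 of the 10 genes. A value was called at an adjusted p under 0.05 (limma, Benjamini-Hochberg over all 22519), and the 2 arrays per group limit the precision.

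Marker genes were read the same way. Of 11 renin cell and stromal genes on the array 7 were tested. Pdgfra, Pdgfrb, Vim and Acta2 lay at 6113 or above on every array, Kcnj8 and Abcc9 between 364.3 and 2522, and Cspg4, Des, Gja4 and Rgs5 at 378.5 or below. Gja5, a connexin of renin cells, lay at 9.1 or below, and renin is not analysed here. The summed stromal signal was 130951 and 121123 with interleukin, 103768 and 103411 with hydrogen peroxide, and 104983 and 108088 with vehicle. Acta2, Pdgfrb and Pdgfra rose with interleukin (1.99-fold, 1.47-fold and 1.33-fold), and Kcnj8 and Abcc9 fell by 1.65 and 0.91 on the log2 scale with hydrogen peroxide.

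Of 10 leukocyte and macrophage genes on the array 5, among them Ptprc, Itgam and Cd3e, were below 193.7 on every array and 3 were tested. Their summed signal was 6687 and 7568 with interleukin, 4853 and 4594 with hydrogen peroxide, and 3968 and 4034 with vehicle, and Cd14, a lipopolysaccharide receptor that stromal cells can also express, held most of it. Cd14 and Cd68 rose with interleukin (1.87-fold and 2.38-fold), and Cd68 rose with hydrogen peroxide (2.06-fold). Of 8 endothelial genes 5, among them Pecam1, were below 193.7 on every array and only Kdr, a receptor of vascular growth factor, was tested. Kdr was bright, at 8069 and 11214 with interleukin, 11315 and 10461 with hydrogen peroxide, and 13235 and 15690 with vehicle, and it fell by 0.60 on the log2 scale with interleukin (adjusted p = 0.0194 by limma). Of 11 epithelial genes 2 were tested and neither passed in either comparison with vehicle.

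Control probes compare the 3′ end of a transcript with its 5′ end, which reflects RNA quality. The beta-actin ratio was 1.46 and 1.55 with interleukin, 1.35 and 1.32 with hydrogen peroxide, and 1.22 and 1.26 with vehicle. The Tfrc ratio was 3.05 and 3.95 with interleukin, 3.54 and 2.30 with hydrogen peroxide, and 1.85 and 2.14 with vehicle. For Pcx it was 2.30 and 2.46 with interleukin, 2.89 and 2.03 with hydrogen peroxide, and 1.66 and 1.59 with vehicle. Both treatments thus lay above vehicle in these 3 ratios, and the Gapdh ratio lay between 0.825 and 0.873 on all arrays.

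With interleukin both inducible metallothioneins rose, and so did 2 zinc importers, while the importer Slc39a10, the exporters and Mtf1 did not pass the test. Mt2 rose 15.1-fold, Mt1 4.32-fold, the brightest probe set of Slc39a14 4.14-fold and that of Slc39a8 2.11-fold. Of the 16 tested probe sets 6 rose, 0 fell and 10 did not pass in this comparison, beside 7.58% of all 22519 tested probe sets that rose and 8.52% that fell (16.1% together). Counted once per gene, through its brightest probe set, 4 of 9 genes rose, beside 9.78% of 10892 genes that rose and 6.61% that fell. Not all of the 6 calls held when 1 array was left out, and the 3627 calls over all probe sets also became fewer. In these fits the log2 changes of the 6 stayed positive, at 0.77 or above. For 1438490_at of Slc39a14 they lay between 0.90 and 1.10. The call of 1438490_at was lost without interleukin array 2 too, with no filter on signal and without a trend in the variance. The brightest Mtf1 probe set lay between -0.92 and -0.29 and was called lower without interleukin array 2. The median log2 change was 0.29 over the 16 and -0.02 over all tested probe sets. The beta-actin, Tfrc and Pcx ratios, the summed leukocyte and stromal signals and Kdr moved with these changes, and their part in them was not tested.

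Mt2, read by probe set 1428942_at, encodes the metallothionein found with Mt1 in most mouse tissues. Its signal was 13101 and 16153 with interleukin, 996.9 and 966.4 with hydrogen peroxide, and 954.8 and 971.3 with vehicle. Both interleukin arrays lay far above the other 4, which stayed within a narrow range. The log2 change was 3.92 ± 0.14 with interleukin (SE, n = 2 per group, adjusted p = 1.55e-07 by limma), rank 22 from the top among 22519. The arrays read RNA of whole cultures, so a higher level per cell and a larger share of responding cells cannot be told apart.

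Mt1, read by 1422557_s_at, encodes the closely related partner of Mt2. Its signal was 5246 and 8016 with interleukin, 1905 and 1807 with hydrogen peroxide, and 1553 and 1448 with vehicle. The groups did not overlap, and the interleukin arrays lay highest and furthest from each other. Its log2 change with interleukin was 2.11 ± 0.18 (SE, n = 2 per group, adjusted p = 3.91e-05 by limma), rank 118. A probe set of this kind can match several transcripts, so signal from a near-identical gene cannot be told apart from that of Mt1. The other Mt1 probe set, 1451612_at, was dim and not tested, at 36.5 and 41.4 with interleukin, 9.2 and 71 with hydrogen peroxide, and 99.9 and 115.3 with vehicle.

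Mt3, the metallothionein best known from brain, was below the tested range. Its signal was 152.1 and 67.4 with interleukin, 26.9 and 116 with hydrogen peroxide, and 30.3 and 117.1 with vehicle. The groups overlapped, and no array reached 193.7. Its gene lies within the same stretch of chromosome 8 (94152607 to 94154148) as Mt2 (94172618 to 94173567) and Mt1 (94178883 to 94180327) in GRCm38.p6.

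**Figure D2:**
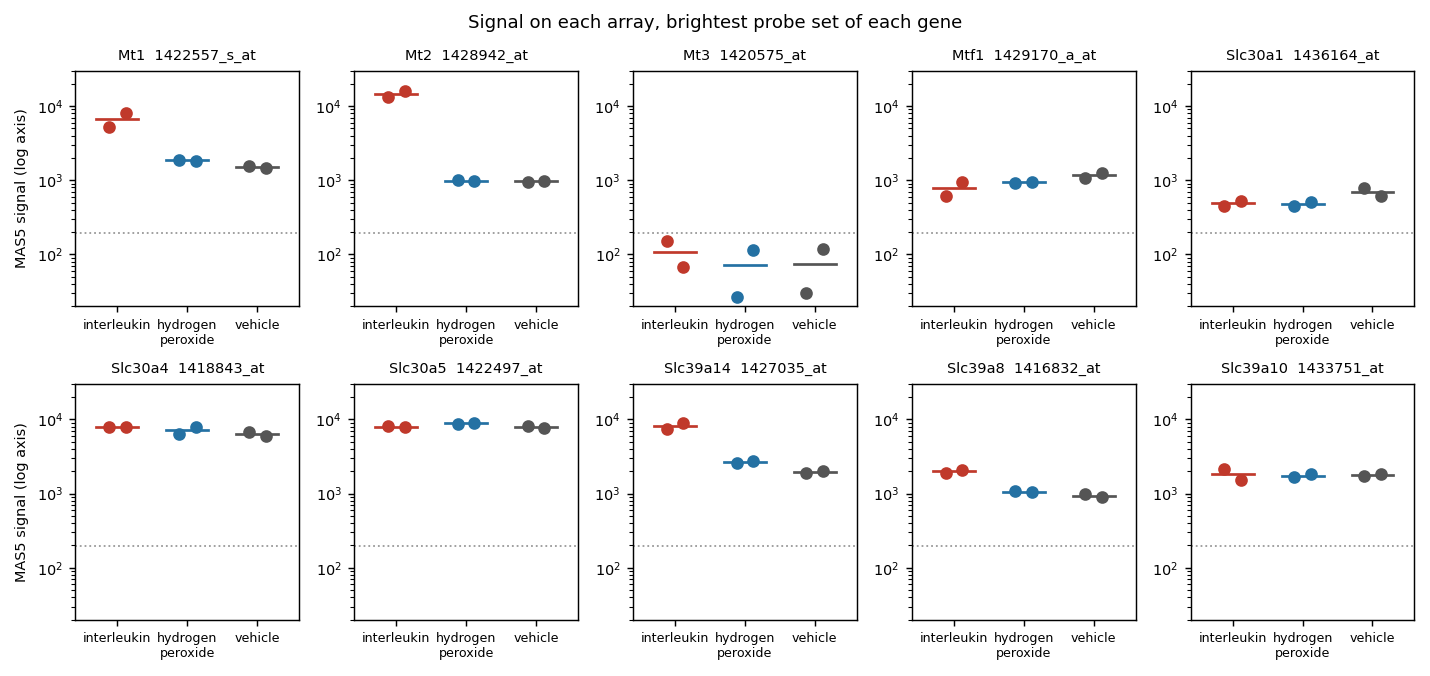
MAS5 signal on a log axis for the brightest probe set of each of the 10 genes, with a point per array and a bar at the group mean; the dotted line is the lowest geometric mean signal tested (193.7). The interleukin points of Mt2, Mt1, Slc39a14 and Slc39a8 lie above all others of the same gene. Those of Slc30a4, which was not called, do so narrowly, and those of the remaining genes do not.

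Among the importers Slc39a14 (ZIP14), which also carries iron and manganese and is an acute-phase importer of liver, changed most. Probe set 1427035_at gave 7521 and 8826 with interleukin, 2572 and 2735 with hydrogen peroxide, and 1896 and 2042 with vehicle. The 3 groups were apart, with vehicle lowest. The log2 change with interleukin was 2.05 ± 0.12 (SE, n = 2 per group, adjusted p = 3.71e-06 by limma). A dimmer probe set of the gene, 1425649_at, gave 1616 and 1603 with interleukin, 707.1 and 774.3 with hydrogen peroxide, and 772.9 and 946.4 with vehicle. It rose less with interleukin, by 0.91 on the log2 scale, with a 95% confidence interval of 0.53 to 1.29 that lay below the interval of 1.77 to 2.33 of the brightest probe set.

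The third tested probe set of Slc39a14, 1438490_at, gave 876.9 and 762.9 with interleukin, 339.7 and 562.1 with hydrogen peroxide, and 434.6 and 385 with vehicle. It rose with interleukin, with a log2 change whose 95% confidence interval was 0.40 to 1.59 (n = 2 per group, adjusted p = 0.0298 by limma). Its call was lost without interleukin array 1 (adjusted p = 0.134), interleukin array 2 (0.0691), vehicle array 1 (0.101) or vehicle array 2 (0.159), with no filter on signal (0.068) and without a trend in the variance (0.0709), over a range of 0.0109 to 0.159 in 13 alternatives. The call of 1425649_at (adjusted p = 0.00529) was lost without vehicle array 1 (0.0645, range 0.0039 to 0.0645 in 13 alternatives). The brightest probe set was called in 15 of 15 alternatives. The dim 1457770_at was not tested and gave 97.3 and 50.2 with interleukin, 24.3 and 65.3 with hydrogen peroxide, and 31.6 and 49.2 with vehicle. Which transcripts each probe set reads was not analysed here.

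Slc39a8 (ZIP8), an importer of zinc and manganese at the cell surface, also rose. Probe set 1416832_at gave 1888 and 2080 with interleukin, 1071 and 1036 with hydrogen peroxide, and 980.8 and 897 with vehicle. All 6 arrays fell in the order interleukin, hydrogen peroxide, vehicle. The log2 change with interleukin was 1.08 ± 0.15 (SE, n = 2 per group, adjusted p = 0.00104 by limma). The dimmer 1448482_at gave 842.7 and 466.1 with interleukin, 346.5 and 531.5 with hydrogen peroxide, and 433.3 and 404.2 with vehicle, and its log2 change with interleukin was 0.58 ± 0.32 (adjusted p = 0.25 by limma).

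Slc39a10 (ZIP10), an importer of the cell surface, did not pass with either probe set. Probe set 1433751_at gave 2169 and 1520 with interleukin, 1657 and 1815 with hydrogen peroxide, and 1736 and 1818 with vehicle, and the groups overlapped. Its log2 change with interleukin was 0.03, with a 95% confidence interval of -0.36 to 0.42. For 1439041_at the signals were 954.1 and 512.5 with interleukin, 703.2 and 855.3 with hydrogen peroxide, and 681.8 and 938.3 with vehicle, and the log2 change was -0.19 (-0.83 to 0.45). On both probe sets interleukin array 1 was the highest array and interleukin array 2 the lowest.

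**Figure D3:**
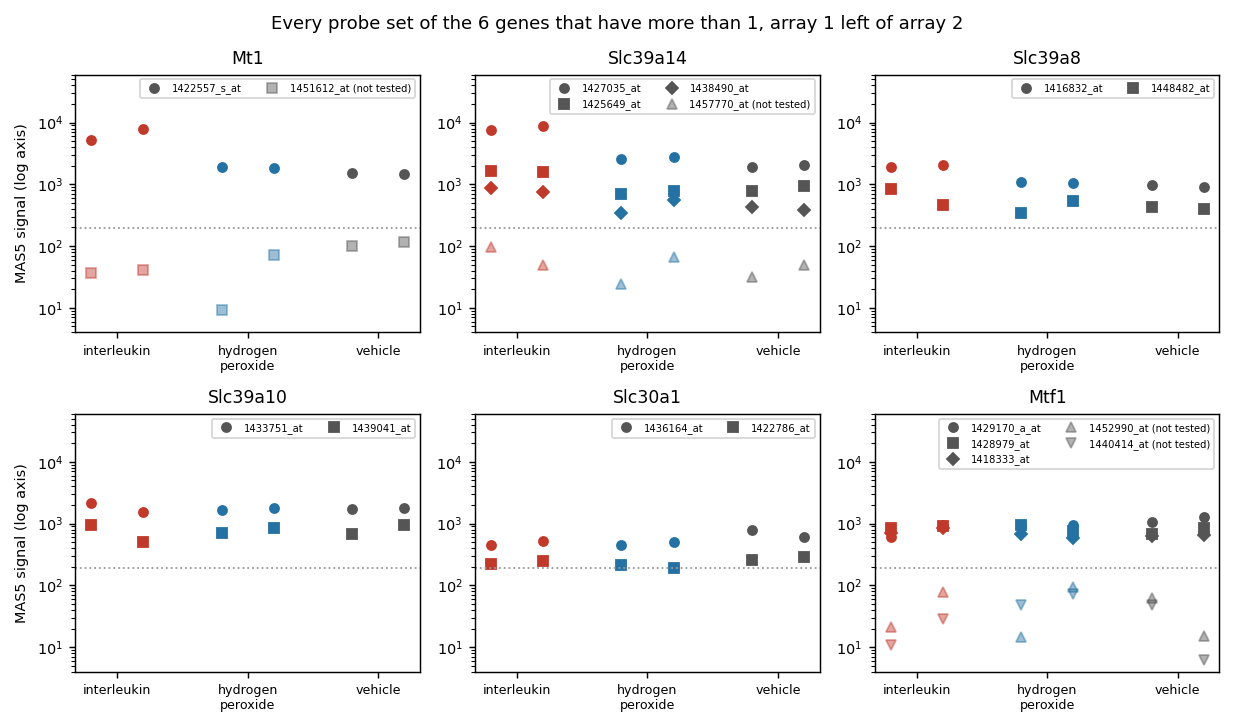
MAS5 signal on a log axis for every probe set of the 6 genes with more than 1, each with its own symbol, array 1 left of array 2 within a group; pale symbols were not tested and the dotted line is at 193.7. The 3 tested Slc39a14 probe sets lie higher with interleukin than with vehicle, and the tested Mtf1 probe sets differ in direction.

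None of the exporters passed. Slc30a1 (ZnT1), the exporter of the cell surface, gave 449.7 and 531.1 with interleukin, 447.7 and 509.3 with hydrogen peroxide, and 792.2 and 608.8 with vehicle on probe set 1436164_at. The arrays of both treatments lay below both vehicle arrays. The log2 change with interleukin was -0.51, with a 95% confidence interval of -1.02 to 0.00477 (adjusted p = 0.17 by limma). The dimmer 1422786_at gave 218.9 and 250.1 with interleukin, 213.1 and 191.9 with hydrogen peroxide, and 258.5 and 291.3 with vehicle, and the log2 change was -0.23 (adjusted p = 0.692 by limma). Both changes of Slc30a1 had the opposite sign to those of Mt1 and Mt2.

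Slc30a4 (ZnT4), which loads vesicles and, in the mammary gland of mouse, milk with zinc, gave 7807 and 7897 with interleukin, 6393 and 7793 with hydrogen peroxide, and 6653 and 6058 with vehicle. Both interleukin arrays lay above both vehicle arrays, by 0.31 ± 0.12 on the log2 scale (SE, n = 2 per group, adjusted p = 0.102 by limma). Slc30a5 (ZnT5), which supplies zinc to enzymes of the secretory pathway, gave 8169 and 7843 with interleukin, 8767 and 8835 with hydrogen peroxide, and 8128 and 7712 with vehicle. The interleukin and vehicle arrays overlapped, and the log2 change was 0.02 with a 95% confidence interval of -0.19 to 0.22, the narrowest among the 16 probe sets.

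Mtf1, which encodes the zinc sensor itself, did not pass and its probe sets differed in sign. The brightest, 1429170_a_at, gave 615.4 and 951 with interleukin, 928.3 and 962.5 with hydrogen peroxide, and 1076 and 1260 with vehicle. Its log2 change with interleukin was -0.61 ± 0.22 (SE, n = 2 per group, adjusted p = 0.0866 by limma), and it was called without interleukin array 2 (log2 -0.92, adjusted p = 0.0204, range 0.0204 to 0.377 in 14 alternatives). Probe set 1428979_at gave 841.3 and 898.4 with interleukin, 962.7 and 770.9 with hydrogen peroxide, and 680.5 and 840.9 with vehicle. Probe set 1418333_at gave 705.6 and 833.9 with interleukin, 682.9 and 585.8 with hydrogen peroxide, and 634 and 643.6 with vehicle. The log2 changes of these with interleukin were 0.20 and 0.26 (adjusted p = 0.536 and 0.412 by limma). The remaining Mtf1 probe sets, 1452990_at and 1440414_at, were dim and not tested, with no signal above 94.2.

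**Figure D4:**
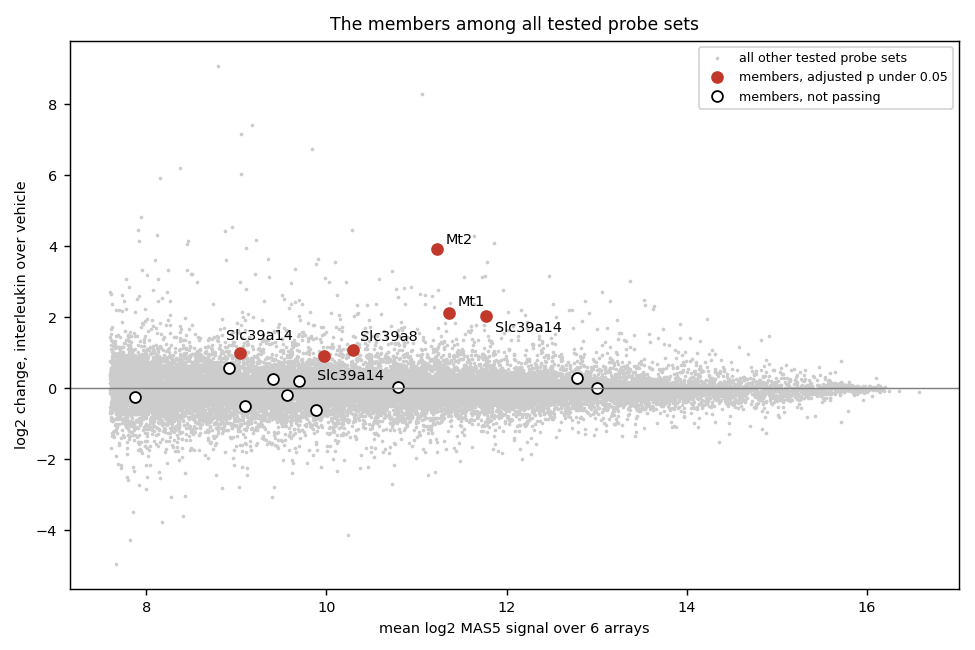
Log2 change of interleukin over vehicle (vertical axis) against mean log2 MAS5 signal over 6 arrays (horizontal axis) for all 22519 tested probe sets, with the 16 probe sets of the metallothioneins and zinc transporters as large points, filled where adjusted p was under 0.05. Mt2 lies at 3.92, Mt1 at 2.11 and the brightest Slc39a14 probe set at 2.05.

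Hydrogen peroxide, an oxidant, left all of these genes short of the threshold. Of the 16 tested probe sets 0 were called by limma, beside 5.69% of all 22519 (3.05% higher and 2.65% lower), and 2 had an unadjusted p under 0.05, beside 5034 of all tested. The calls over all probe sets were 686 higher and 596 lower, or 602 higher and 879 lower after centring on the 75th percentile. The median log2 change was 0.03 over the 16 and 0.02 over all tested probe sets. The 1282 calls over all probe sets became 391 and 675 without hydrogen peroxide array 1 or 2, and 235 and 265 without vehicle array 1 or 2. At the overall share few calls would fall among 16 probe sets, so the 0 does not set these genes apart. The beta-actin, Tfrc and Pcx ratios were also higher with hydrogen peroxide than with vehicle, and their part was not tested. This comparison and the one with interleukin share the vehicle arrays.

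For Mt2 the log2 change with hydrogen peroxide was 0.03, with a 95% confidence interval of -0.28 to 0.33, and its sign turned under quantile normalization and under 75th percentile centring (-0.02 each). Mt1 changed by 0.31 (-0.09 to 0.71, adjusted p = 0.356 by limma), with both hydrogen peroxide arrays above both vehicle arrays. The brightest Slc39a14 probe set changed by 0.43 ± 0.12 (SE, n = 2 per group, adjusted p = 0.0718 by limma). It was called with a stricter filter on signal (0.0491) and with 1 probe set per gene (0.0384), and its adjusted p ranged from 0.0384 to 0.311 over 15 alternatives. The other Slc39a14 probe sets did not follow it, with log2 changes of -0.21 (1425649_at) and 0.10 (1438490_at). Slc30a1 changed by -0.54 (-1.05 to -0.03, adjusted p = 0.2 by limma) on 1436164_at and by -0.44 (adjusted p = 0.48) on 1422786_at.

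The remaining genes did not pass with hydrogen peroxide either. The log2 change was 0.17 for Slc39a8 (1416832_at), 0.15 for Slc30a4 and 0.15 for Slc30a5, and the 2 hydrogen peroxide arrays of Slc30a5 both lay above the vehicle arrays. It was -0.04 for each Slc39a10 probe set. For Mtf1 it was -0.30 (1429170_a_at), 0.19 (1428979_at) and -0.01 (1418333_at). The adjusted p of these genes was between 0.373 (Slc30a5) and 0.978 (1418333_at of Mtf1) by limma.

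**Figure D5:**
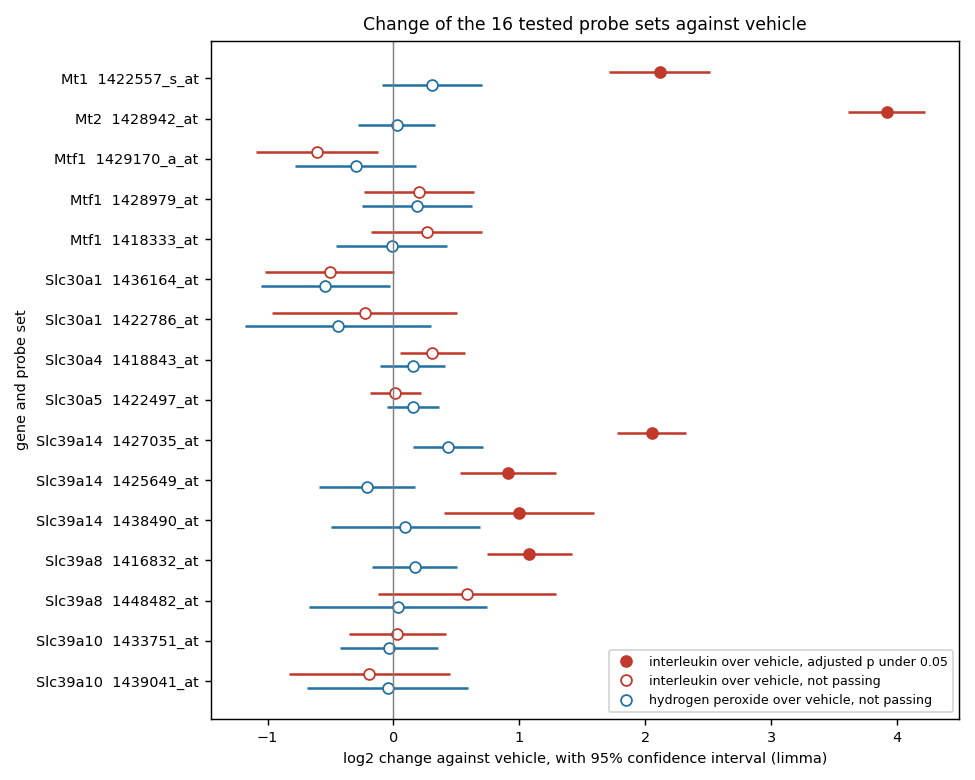
Log2 change against vehicle (horizontal axis) with its 95% confidence interval from limma for the 16 tested probe sets, in red for interleukin and in blue for hydrogen peroxide; filled points passed an adjusted p under 0.05. With interleukin 6 points are filled and with hydrogen peroxide 0.

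Set directly against hydrogen peroxide, interleukin gave higher Mt1, Mt2, Slc39a14 and Slc39a8. Of the 16 probe sets 5 were higher, 0 lower and 11 did not pass, beside 4.95% of all 22519 that were higher and 3.87% that were lower (8.82% together). The 1987 calls over all probe sets became 839 without hydrogen peroxide array 2. The median log2 difference was 0.24 over the 16 and -0.05 over all tested probe sets. The difference was 14.8-fold for Mt2 (adjusted p = 1.37e-07 by limma), 3.495-fold for Mt1 (0.000149), 3.07-fold for Slc39a14 by 1427035_at (2.48e-05) and 1.88-fold for Slc39a8 by 1416832_at (0.00419). All 4 genes were thus past the threshold against both vehicle and hydrogen peroxide, which share the interleukin arrays.

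Probe set 1425649_at of Slc39a14 was 2.18-fold higher with interleukin than with hydrogen peroxide (adjusted p = 0.00263 by limma). For 1438490_at the log2 difference of 0.90 had an adjusted p of 0.0642. It passed without hydrogen peroxide array 2 (log2 1.27, adjusted p = 0.0322), with quantile normalization (0.0421), with 75th percentile centring (0.0424) and with the crossed block described under the alternatives (0.0325), over a range of 0.0322 to 0.275 in 14 alternatives. Slc30a1, lower than vehicle in sign under both treatments, differed by 0.03 between them on 1436164_at, with a 95% confidence interval of -0.48 to 0.55. Slc30a5 differed by -0.14 (adjusted p = 0.417 by limma).

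The other zinc transporters were read through 1 probe set per gene, its brightest. All 18 further SLC30 and SLC39 genes listed were on the array, and 7 were too dim to be tested. With interleukin 1 of the 11 tested rose and 10 did not pass, a share near the 9.78% of all genes that rose, with a median log2 change of 0.11 beside 0.03 over all genes. The one that rose was Slc39a6 (ZIP6), an importer, at 10364 and 11073 with interleukin against 8772 and 7811 with vehicle, a log2 change of 0.37 ± 0.10 (adjusted p = 0.0331 by limma). With hydrogen peroxide 0 of 11 passed by limma, beside 6.99% of genes called (4.08% higher and 2.91% lower), and in interleukin over hydrogen peroxide 0 of 11 passed, beside 10.4% (6.3% higher and 4.06% lower).

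Genes of copper and iron handling were compared by the same rule. Of 17 tested 4 rose with interleukin and 13 did not pass, beside 9.78% of all genes that rose and 6.61% that fell, with a median log2 change of 0.29 beside 0.03 over all genes. Slc11a2, the iron importer DMT1, gave 5153 and 5192 with interleukin against 2394 and 2582 with vehicle, a 2.08-fold rise (adjusted p = 0.000362 by limma). Steap2, a metal reductase, rose 1.495-fold and Fth1, the ferritin heavy chain, 1.23-fold. Lcn2, which binds bacterial iron carriers, gave 9945 and 7014 with interleukin, 321.5 and 288.6 with hydrogen peroxide, and 85.9 and 39.3 with vehicle. Its vehicle signal was below 193.7, so no fold is given, and it reached the tested range through the interleukin arrays. With hydrogen peroxide 1 of 17 passed, namely Lcn2 (adjusted p = 0.0042 by limma), a share near the 6.99% of all genes. In interleukin over hydrogen peroxide 3 of 17 were higher, namely Lcn2, Slc11a2 and Fth1, beside 6.3% of all genes.

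Other genes reported as MTF-1 targets in mouse were few. With interleukin 2 of 5 tested rose, 2 fell and 1 did not pass, beside 9.78% of all genes that rose and 6.61% that fell. Ndrg1, a stress-induced gene, was 1.69-fold higher and Selenow, a selenoprotein, 1.52-fold higher, while Gclc, a subunit of the first enzyme of glutathione synthesis, fell by 0.54 and Csrp1, a LIM-domain protein of muscle cells, fell by 0.30 on the log2 scale (adjusted p = 0.00049, 0.00308, 0.0156 and 0.0372 by limma). With hydrogen peroxide 0 of 5 passed by limma, beside 6.99% of all genes, and in interleukin over hydrogen peroxide 2 of 5 were higher, beside 6.3%.

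A list of genes linked to the interleukin-6 and STAT3 response, which induces Mt2 and Slc39a14 in mouse liver, held mostly genes that rose with interleukin. Like the other lists it was chosen with earlier results of these data known, so its counts are descriptive only. The labels do not name the interleukin. Of 17 tested 10 rose, 1 fell and 6 did not pass, beside 9.78% of all genes that rose and 6.61% that fell, with a median log2 change of 0.95 beside 0.03 over all genes. Il6 itself gave 9253 and 5717 with interleukin, 249 and 139.4 with hydrogen peroxide, and 131.7 and 92.9 with vehicle. Its signal was below 193.7 with vehicle and on hydrogen peroxide array 2. Il6 reached the tested range through the interleukin arrays, so its place among the risen genes rests partly on the filter. Cebpd, a transcription factor of the acute phase, rose 9.002-fold (adjusted p = 1.55e-07 by limma). Saa3 and Ptx3 rose by 8.31 and 4.29 on the log2 scale (adjusted p = 1.7e-10 and 3.21e-07 by limma). The gene that fell was Jak1, by 0.40 on the log2 scale. Those not passing were Stat3, Cebpb, Pim1, Lifr, Il6st and Il6ra, with log2 changes from 0.20 (Il6st) to 0.75 (Lifr). A part of this response in the rise of Mt2 and Slc39a14 was not tested. With hydrogen peroxide 2 of 17 rose, 1 fell and 14 did not pass, beside 4.08% of all genes that rose and 2.91% that fell. Ptx3 and Saa3 rose by 1.58 and 1.08 on the log2 scale and Il6st fell by 0.45 (adjusted p = 0.00128, 0.00199 and 0.0179 by limma). In interleukin over hydrogen peroxide 12 of 17 were higher, beside 6.3% of all genes.

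The genes most like Mt2, Slc39a14 and Slc30a1 over the 6 arrays were found by the root mean square difference of log2 signal, each gene centred on its own mean, among 10891 others. Nearest to Mt2 were Slpi, a secreted protease inhibitor, at 0.30, Cebpd at 0.34 and Lbp, an acute-phase protein that binds lipopolysaccharide, at 0.34 log2 units. Lbp lay below 193.7 on all hydrogen peroxide and vehicle arrays, at 91.2 to 165, so its distance and rank rest on dim values there. Mt1 came at rank 51 (0.93) and Slc39a14 at rank 62 (0.99). Nearest to Slc39a14 were Tsc22d1, a transcriptional regulator, at 0.09, Aldh1l1, a folate enzyme, at 0.11 and Igtp, an interferon-induced GTPase, at 0.13, with Mt1 next at rank 4 (0.15). Nearest to Slc30a1 were Ablim3, St3gal5 and Tmem41b, at 0.09 each, which all had their highest signals with vehicle. These distances rest on 3 groups of 2 arrays and describe the profiles only.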

How the data were processed

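The authors deposited linear intensities, 1 MAS5 signal for each probe set, per the submitters' processing notes, which give no version. Every array had a mean of 1500.01 after trimming 2% at each end, and all values were above 0. Detection calls were not used. Here log2 was taken of the deposited signals as they stand. The array has 45101 probe sets, of which 64 are controls and were dropped; the 22519 whose mean log2 signal reached the median of the rest were tested. Gene symbols are those of the platform annotation, brought up to date with RefSeq, where 34754 of the 34958 probe sets with 1 symbol matched; 932 had several and 9160 none listed. No probe set naming a member with other genes was found. A linear model over the 6 arrays was fitted with limma 3.58.1 (R 4.3.3), its variance moderated along the mean signal, with Benjamini-Hochberg adjustment. Folds and standard errors are those of the model. A gene outside the members was read by its brightest probe set. Named were all members, up to 4 genes of smallest p per list whose arrays did not overlap, and the 3 nearest genes of Mt2, Slc39a14 and Slc30a1. In the interleukin-6 and glucocorticoid lists all genes that fell or did not pass with interleukin are named too. Marker genes given by value and ranks beyond the third were chosen after their values were seen. The members and lists were chosen with earlier results of these data known. Alternatives changed the scaling, a pseudocount of 32, the filter, the variance trend, the arrays fitted, the block and the probe sets per gene. The fit was tested on simulated data of 22519 probe sets for interleukin over vehicle, where it recovered 6% of changes of 0.5, 54% of 1, 78% of 2 and 100% of 3 log2 units. Each size was given to 50 probe sets, and 8 unchanged probe sets were called. Every probe set was drawn with its own residual spread, so these shares describe the simulation and need not hold for the data. Replicate numbers in the titles were not used to pair the arrays, and a check is given with the alternatives.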

Additional observations from a re-analysis of the deposited data

How the results depend on the processing

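Of 685 values of the 16 probe sets under the alternatives, 648 kept their direction and side of the threshold, 7 fell short of it, 7 newly passed it and 23 changed sign, the last with no call on either side. The calls of Mt2, Mt1, Slc39a8 (1416832_at) and the brightest Slc39a14 probe set held in every alternative in which they were tested, for interleukin against vehicle and against hydrogen peroxide. With a stricter filter, which tests only 6 of the 16, 3 probe sets were called for interleukin over vehicle, 1 for hydrogen peroxide over vehicle and 3 for interleukin over hydrogen peroxide, and with 1 probe set per gene 1 was called for hydrogen peroxide over vehicle. Over all probe sets, a variance without a trend on signal gave 1783 calls for interleukin over vehicle (3627 as reported), 57 for hydrogen peroxide over vehicle (1282) and 716 for interleukin over hydrogen peroxide (1987); no filter gave 762 for hydrogen peroxide over vehicle, and 1 probe set per gene, with fewer tested, gave 2128 for interleukin over vehicle. Leaving out 1 array gave 1554 to 3583, 235 to 1751 and 839 to 1919 calls in these comparisons, and an arm left with 1 array is assumed to vary like the others. The cause of these shifts was not tested, apart from the fewer probe sets or arrays.

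Signs changed for these values, none called on either side. With hydrogen peroxide over vehicle, Mt2 was -0.017 after quantile normalization and -0.023 after 75th percentile centring, and 1448482_at of Slc39a8 was -0.014 after that centring. Leaving out 1 array gave, for interleukin over vehicle, -0.022 to 0.054 for Slc30a5, -0.22 to 0.29 for 1433751_at and -0.64 to 0.25 for 1439041_at of Slc39a10. For hydrogen peroxide over vehicle it gave -0.10 to 0.031 and -0.27 to 0.19 for these Slc39a10 probe sets, -0.12 to 0.10 for 1418333_at of Mtf1, -0.27 to 0.46 for 1438490_at of Slc39a14 and -0.27 to 0.34 for 1448482_at of Slc39a8. For interleukin over hydrogen peroxide it gave -0.62 to 0.0088 for 1429170_a_at and -0.15 to 0.17 for 1428979_at of Mtf1, -0.087 to 0.15 for 1436164_at of Slc30a1, and -0.19 to 0.32 and -0.60 to 0.30 for the Slc39a10 probe sets.

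Deviations of same-numbered arrays from their group means correlated at 0.05 (interleukin and vehicle), 0.11 (hydrogen peroxide and vehicle) and -0.13 (interleukin and hydrogen peroxide). The titles do not say whether same-numbered arrays belong together, and these correlations cannot settle it. With the replicate block 3342, 1170 and 1756 probe sets were called in the 3 comparisons, of which 6, 0 and 5 were of the metallothioneins and zinc transporters. A crossed replicate block for interleukin over hydrogen peroxide, chosen after seeing the data, gave 2543 calls, 6 of them among the 16.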

Other observations

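A list of genes of the glucocorticoid response, which also induces metallothioneins in liver, held 8 tested genes, among them the glucocorticoid receptor itself. With interleukin 2 rose, 1 fell and 5 did not pass, beside 9.78% of all genes that rose and 6.61% that fell. Hsd11b1, which regenerates active glucocorticoid, gave 9441 and 9665 with interleukin against 4278 and 3733 with vehicle, a 2.39-fold rise (adjusted p = 9.6e-05 by limma), and Klf9, a transcription factor, rose 2.07-fold. Nr3c1, the receptor, fell by 0.84 on the log2 scale with interleukin, and 0 of the others fell. Those not passing were Per1, Tsc22d3, Fkbp5, Sgk1 and Dusp1, with log2 changes from -0.10 (Dusp1) to 0.56 (Per1). With hydrogen peroxide 1 of 8 rose, namely Klf9 at 1.82-fold (adjusted p = 0.0411 by limma), beside 4.08% of all genes.

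In the NRF2 and oxidant response list 2 of 15 tested genes rose with interleukin, 1 fell and 12 did not pass, a share of calls near the 16.4% of all genes. Sod2, the mitochondrial superoxide dismutase, rose 5.08-fold (adjusted p = 1.8e-07 by limma) and Keap1, which restrains NRF2, 1.35-fold, while Gpx1, a glutathione peroxidase, fell by 0.34 on the log2 scale. With hydrogen peroxide 1 of 15 passed, a share near the 6.99% of all genes. It was Hmox1, which breaks down haem, at 3344 and 3272 with hydrogen peroxide against 2042 and 2100 with vehicle, a 1.60-fold rise (adjusted p = 0.0112 by limma).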
